A study of Mus musculus with 16 samples.

Results

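The 8 choroid plexus rich libraries were the 8 of the 16 hippocampus libraries of this series with the highest level of Ttr, the transthyretin gene that choroid plexus epithelium transcribes at very high levels. The 8 libraries with the lowest Ttr level were the choroid plexus poor libraries. Levels were ranked by RPKM, the reads of a gene divided by its length and by the size of the library. The groups were thus chosen from a measured value and not from a label, so a p-value here describes how closely the counts of another gene followed this ranking, and Ttr itself was given no test. The libraries were polyadenylated RNA of the hippocampus of 5-month-old mice, with 4 libraries for each of 4 genotypes. These were wild-type C57BL/6J, Dp16 (a duplication of the part of mouse chromosome 16 that corresponds to human chromosome 21), 5xFAD (human transgenes with familial Alzheimer disease mutations, driven by the neuronal Thy1 promoter) and 5xFAD-Dp16, which carries both. The rich libraries were 2 wild-type, 1 Dp16, 2 5xFAD and 3 5xFAD-Dp16, from 6 males and 2 females. The poor libraries were 2 wild-type, 3 Dp16, 2 5xFAD and 1 5xFAD-Dp16, from 4 males and 4 females. The 5xFAD-Dp16 libraries were all from males. Whether 2 libraries could share an animal is not stated in the labels, and the p-values therefore cover only the spread seen among libraries, which may be technical.

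The choroid plexus is a folded sheet of epithelium around a core of stroma and leaky capillaries that hangs into the brain ventricles and secretes cerebrospinal fluid. Its epithelial cells pump sodium, chloride and bicarbonate across the sheet, let water follow through aquaporin channels, carry vitamins, metals and hormones into the fluid, and close the gaps between cells with claudin tight junctions. The plexus of the lateral ventricle lies directly against the hippocampus and can stay attached to it during dissection. Otx2 is the homeodomain transcription factor that directs and maintains choroid plexus fate, and motile cilia of the ependymal cells that line the ventricle move the fluid.

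The upstream sequences of 3 choroid genes whose transcripts followed Ttr across the libraries are shown. Mfrp and Otx2 are the 2 with a match to the motif below, among the 11 choroid core panel genes with a sequence. Aqp1 is shown as a gene without a match, so the 3 do not stand for the panel. Each is 250 bases before a RefSeq start (build GRCm38.p6), read on the gene's own strand. Capitals mark a match to TAATCC, the core bound by Otx2-type homeodomains, or to its reverse complement. The Mfrp sequence is chr9:44101520-44101769 on the plus strand, the Otx2 sequence is chr14:48665110-48665359 on the minus strand and the Aqp1 sequence is chr6:55336049-55336298 on the plus strand.
Mfrp: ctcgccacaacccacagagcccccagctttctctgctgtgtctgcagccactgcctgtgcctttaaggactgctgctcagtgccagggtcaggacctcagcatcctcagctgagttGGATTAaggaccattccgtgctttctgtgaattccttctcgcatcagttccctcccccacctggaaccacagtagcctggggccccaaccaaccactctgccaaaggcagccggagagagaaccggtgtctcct
Otx2: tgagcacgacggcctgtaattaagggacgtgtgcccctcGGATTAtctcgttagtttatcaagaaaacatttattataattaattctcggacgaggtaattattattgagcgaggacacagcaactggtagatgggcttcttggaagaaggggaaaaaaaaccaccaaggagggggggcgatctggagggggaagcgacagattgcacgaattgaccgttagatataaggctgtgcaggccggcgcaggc
Aqp1: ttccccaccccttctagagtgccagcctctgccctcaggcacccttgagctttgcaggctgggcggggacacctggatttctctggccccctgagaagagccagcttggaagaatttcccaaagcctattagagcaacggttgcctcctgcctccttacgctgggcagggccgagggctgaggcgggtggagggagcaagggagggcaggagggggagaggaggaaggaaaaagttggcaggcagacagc
The match lies at -134 from the start in Mfrp and at -211 in Otx2, where it belongs to 1 of 4 listed starts, and the Aqp1 window holds none. Of 13 choroid core panel genes (Folr1, Kl, Kcnj13, Otx2, Sostdc1, Calml4, Slc4a5, Tmem72, Aqp1, F5, Cldn2, Mfrp and Steap1), 11 were in the RefSeq promoter table, with 14 windows. TAATCC on either strand was found in 2 of these 14 and in 2320 of all 32851 windows (7.06%). GTAAACA, a core bound by forkhead factors such as Foxj1, was in 0 of the 14 and in 3.65% of all windows. These windows run from 250 bases before to 50 after each start, and a match is a string of letters, not a bound site.

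The libraries did not fall into 2 equal groups. Ttr reached 1974 to 5156 RPKM in the rich libraries and 12 to 1471 RPKM in the poor libraries, a 430-fold span from end to end. The library just inside the rich group, 5xFAD-Dp16 replicate 3, had 1974 RPKM, and the library just outside it, Dp16 replicate 1, had 1471 RPKM, a 1.34-fold step. The widest gap came lower, between 5xFAD replicate 1 at 1187 RPKM and 5xFAD-Dp16 replicate 2 at 115 RPKM, a 10.3-fold step. Dp16 replicate 1 and 5xFAD replicate 1 were therefore ranked among the poor libraries while lying above this gap, and values are given below also for the 10 libraries above the gap against the 6 below it, a split chosen after seeing the data. The summed RPKM of the 13 core panel genes, which do not include Ttr, was checked against the name of the groups: it was 71.7 to 225 (median 145) in the rich libraries, 84.9 in Dp16 replicate 1, 61.8 in 5xFAD replicate 1 and 8.96 to 14.5 in the 6 libraries below the gap. Ranking the libraries by that sum put 14 of 16 on the same side. The panel was chosen with these data already described, so this is no independent check. Total counts were 17605052 to 24089861 in the rich and 15838097 to 25037769 in the poor libraries.

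**Figure D1:**
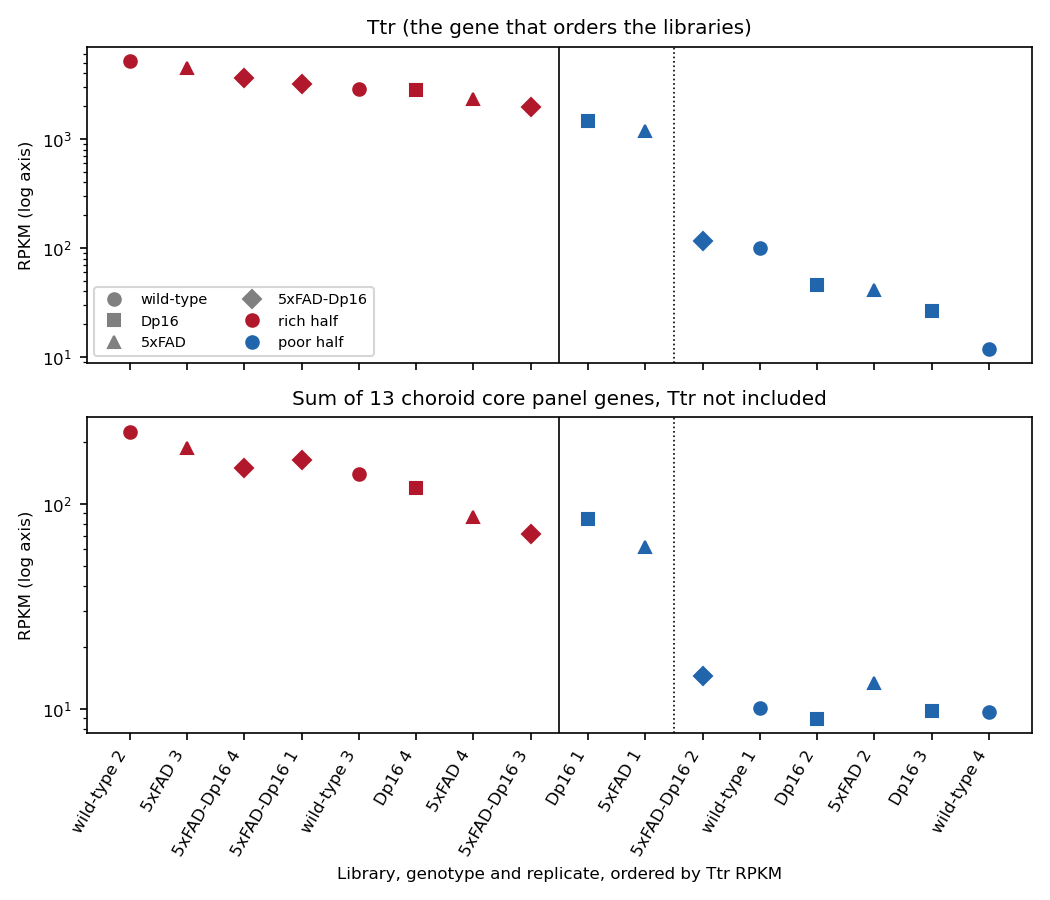
The upper panel plots the Ttr level and the lower panel the summed level of 13 other choroid genes, both in RPKM on a log axis, in each of the 16 libraries ordered by Ttr (symbols give genotype, colours the rich and poor group; solid line, boundary between the groups; dotted line, widest gap). The 6 libraries right of the dotted line lie between 8.96 and 14.5 for the summed genes, and the other 10 between 61.8 and 225.

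Between rich and poor libraries 10 of 70 genes of choroid plexus epithelium and 2 of 20 genes of motile cilia and ependyma passed as higher, and no gene passed as lower. With genotype as a term, 43 of 16683 genes passed at an adjusted p below 0.05 (edgeR's quasi-likelihood test), a background of 0.258%, and all 43 were higher. Without adjustment 1324 genes had p below 0.05, of which 497 were lower, and DESeq2 called 230 higher and 18 lower. Of 70 tested genes in 6 lists of choroid epithelium genes, 10 passed, all higher, with a median log2 difference of 1.49 beside 0.0038 over all genes tested, and 66 of the 70 differences were positive. At the 10 against 6 split, 187 genes passed, all higher (1.12% of those tested), and 43 of the 70 choroid genes were among them, with a median of 1.5. A total of 34 genes passed at both splits. Along log2 Ttr as a continuous term, 182 genes passed as higher (1.09%), 42 of the 70 choroid genes among them. In bulk tissue, fewer cells of a type and less RNA per cell cannot be told apart.

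The count of 43 depended on single libraries. It was 1 without Dp16 replicate 4 and 1 without 5xFAD-Dp16 replicate 2, 6 when 5xFAD replicate 3 or either of wild-type replicates 1 and 2 was left out, and 7 without 5xFAD-Dp16 replicate 1. It was 10 without Dp16 replicate 2 or Dp16 replicate 3, 11 without 5xFAD replicate 2, 12 without 5xFAD-Dp16 replicate 4 and 28 without wild-type replicate 3. It was 69 without wild-type replicate 4, 84 without 5xFAD replicate 4 and 146 without Dp16 replicate 1, which lies above the gap. The median difference of the 70 choroid genes stayed between 1.37 and 1.72 in these 16 fits, while between 0 and 38 of them passed. Of the genes described below, Krt8 did not pass in 14 of these 16 fits, Pla2g5 in 13, Ecrg4, Krt18, Sostdc1, Calml4, Slco1c1, Msx1 and Tmem212 in 12 each, Cldn1 in 11, Ooep in 10, Pifo and Slc31a1 in 2 each and Cfap126 in 0. Sex was not balanced between the groups, and with sex as a further term 168 genes passed, 43 of the 70 choroid genes among them.

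**Figure D2:**
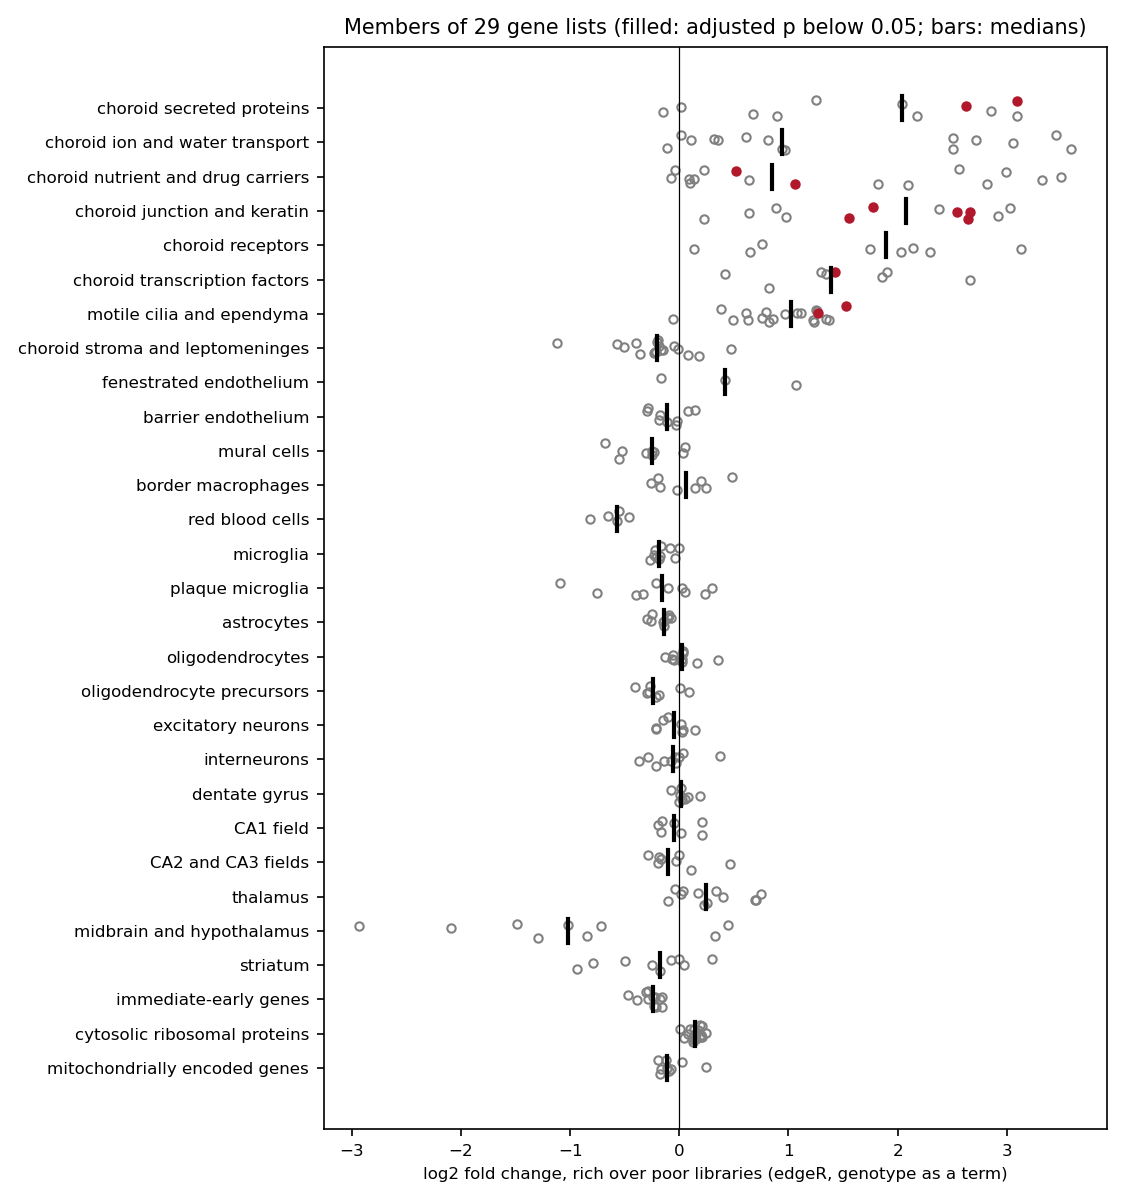
Each row is 1 of 29 gene lists and each point a tested member, placed by its log2 fold change in the rich over the poor libraries; filled points passed at an adjusted p below 0.05 and bars are list medians. The 6 choroid lists and the cilia list lie to the right, with medians from 0.85 to 2.08, and filled points appear in 4 of those 6 choroid lists and in the cilia list.

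Among proteins that the choroid plexus secretes into the fluid, 2 of 11 tested genes passed as higher and 10 of 11 differences were positive, with a median log2 difference of 2.04. Ecrg4, which encodes the precursor of the secreted peptide augurin, was at 21.9, 29.4 and 50.9 CPM, the count scaled to library size (lowest, median and highest), in the rich libraries. In the poor libraries it was at 13.6 CPM in Dp16 replicate 1, 10.5 CPM in 5xFAD replicate 1 and 1.12 to 2.82 CPM in the other 6. The groups did not overlap, and the log2 difference was 3.09 ± 0.52 (SE; adjusted p = 0.0437). Sostdc1, a secreted antagonist of BMP and Wnt signals, was at 16.6, 36.0 and 57.3 CPM in the rich and 2.73, 4.02 and 17.1 CPM in the poor libraries. Its groups overlapped through Dp16 replicate 1, and the difference was 2.63 ± 0.47 (adjusted p = 0.0445).

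Enpp2 encodes autotaxin, the secreted enzyme that makes lysophosphatidic acid, and had the highest level per length of the choroid genes that followed Ttr. Its RPKM was 224 to 772 (median 413) in the 10 libraries above the gap and 54.4 to 86.4 in the 6 below. Its log2 difference was 2.18 ± 0.49 between rich and poor libraries (adjusted p = 0.103) and 2.63 ± 0.27 between the 10 and the 6 (adjusted p = 5.53e-05). Wfdc2 and Lbp, the lipopolysaccharide-binding protein, had differences of 3.09 and 2.04 between rich and poor libraries and did not pass there (adjusted p = 0.128 and 0.0738). Both passed at the 10 against 6 split, with log2 differences of 4.63 and 2.37, as did Igfbp2, a binding protein of insulin-like growth factors, with 1.31. Trf (transferrin, log2 0.01) and Cp (ceruloplasmin, log2 -0.15) did not pass in either comparison, and their RPKM medians of the 10 and the 6 libraries were 175 and 152 for Trf.

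None of the 15 tested genes of ion and water transport passed between rich and poor libraries by edgeR, although 11 had an unadjusted p below 0.05 and 6 were called by DESeq2, all higher. At the 10 against 6 split 8 passed, all higher, and the list median was 0.94 at the first and 1.06 at the second split. Aqp1, the water channel of the apical membrane, was at 11.1, 17.9 and 27.2 CPM in the rich libraries, 10.1 CPM in Dp16 replicate 1, 7.09 CPM in 5xFAD replicate 1 and 0.0906 to 0.982 CPM in the other 6. Its log2 difference was 3.45 ± 0.80 between rich and poor (adjusted p = 0.112) and 5.02 ± 0.42 between the 10 and the 6 (adjusted p = 1.07e-05). The values of Aqp1 did not overlap at either split, and those of the 6 libraries rest on 2 to 23 counts each. Kcne2, a potassium channel subunit, was at 19.0, 38.2 and 49.1 CPM in the rich libraries and at 0.136 to 1.49 CPM in the 6 libraries below the gap, with a log2 difference of 5.90 ± 0.42 between the 10 and the 6 (adjusted p = 3.81e-06).

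The sodium bicarbonate cotransporter Slc4a5 differed by 4.31 ± 0.43 on the log2 scale between the 10 and the 6 (adjusted p = 3.86e-05), the potassium channel Kcnj13 by 3.66 ± 0.38 and the osmosensitive channel Trpv4 by 3.28 ± 0.38. The basolateral anion exchanger Slc4a2, which is also present in other brain cells, was at 51.1 to 105 CPM in the rich and 29.3 to 62.6 CPM in the poor libraries. Its difference was 0.94 ± 0.21 between rich and poor (adjusted p = 0.0928) and 1.06 ± 0.17 between the 10 and the 6 (adjusted p = 0.00293). Transporters that neurons and glia share with the plexus had smaller differences: Atp1b1, a sodium pump subunit, differed by 0.02 and Slc12a2, the sodium-potassium-chloride cotransporter, by 0.35, and neither passed at either split.

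**Figure D3:**
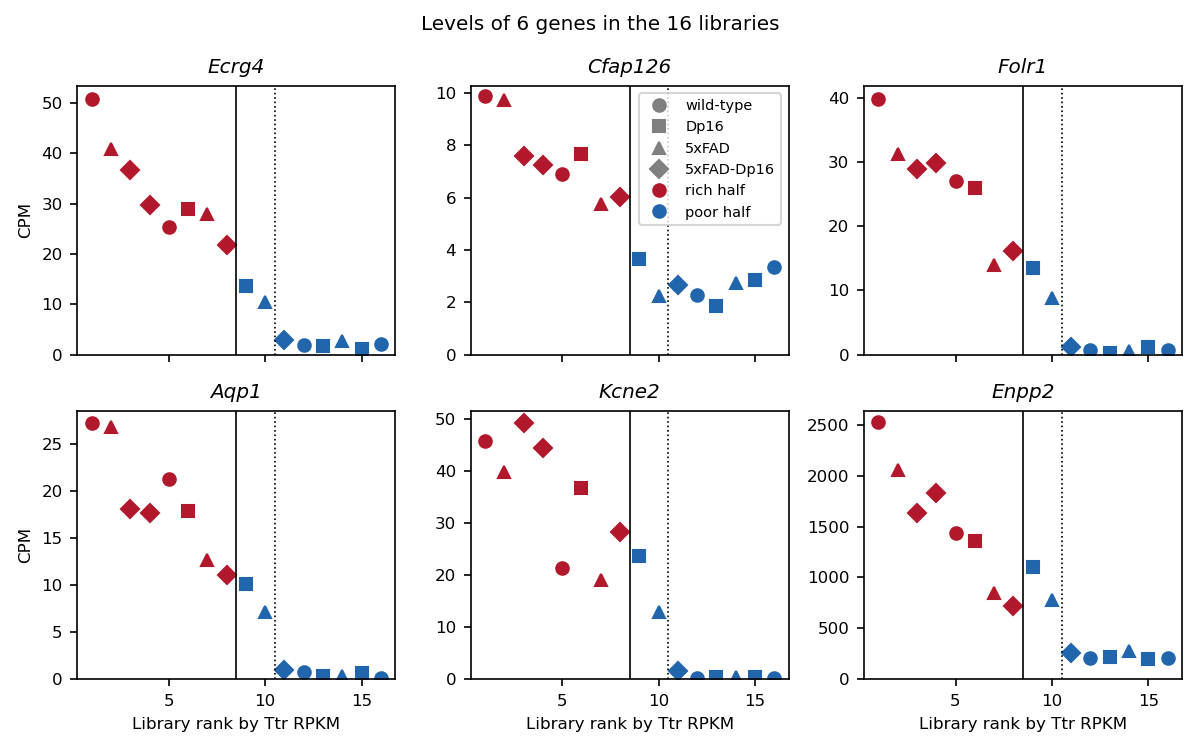
CPM of 6 genes (linear axes from 0) in the 16 libraries, ranked from the highest to the lowest Ttr level; symbols give genotype, colours the rich and poor group, and the lines are the group boundary and the widest gap. Folr1, Aqp1, Kcne2 and Enpp2 step down at the dotted line, while Cfap126 steps down at the solid line, to 3.65 CPM and less.

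Of 16 carriers of nutrients and drugs, 2 passed as higher between rich and poor libraries and 10 passed between the 10 and the 6, again all higher. Slc31a1, the copper importer, was at 25.4, 39.5 and 54.2 CPM in the rich and 16.3, 18.4 and 27.7 CPM in the poor libraries, a log2 difference of 1.06 ± 0.15 (adjusted p = 0.00952). Only Dp16 replicate 1 among the poor libraries reached into the range of the rich ones for Slc31a1. Slco1c1, a thyroid hormone transporter that brain endothelium and astrocytes also make, had a median of 66.6 CPM in the rich and 49.8 CPM in the poor libraries and differed by 0.52 ± 0.10 (adjusted p = 0.0445). Folr1, the folate receptor that brings folate into the fluid, was at 14.1, 28.0 and 39.9 CPM in the rich libraries, 13.4 CPM in Dp16 replicate 1, 8.88 CPM in 5xFAD replicate 1 and 0.283 to 1.18 CPM in the other 6. Its difference was 3.50 ± 0.79 between rich and poor (adjusted p = 0.11) and 5.03 ± 0.38 between the 10 and the 6 (adjusted p = 3.81e-06).

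The retinoid transporter Abca4 and the glucose transporter Slc2a12 differed by 2.56 ± 0.54 and 1.82 ± 0.38 between rich and poor libraries and did not pass there (adjusted p = 0.0743 and 0.0701). Both passed between the 10 and the 6, with differences of 3.02 and 2.15, as did Steap1, a metalloreductase family member (4.71), and the lactate carrier Slc16a8 (4.93). The proton-coupled folate transporter Slc46a1 (0.10 between rich and poor), the drug exporter Abcc4 (-0.04) and the endocytic receptor Lrp2 (-0.08) did not pass at either split.

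The list of junction and keratin genes, which mark an epithelium, had the most calls: 5 of 12 passed as higher between rich and poor libraries and 12 of 12 differences were positive (median 2.08). Krt18 and Krt8, the partner keratins of simple epithelia, differed by 2.66 ± 0.47 (adjusted p = 0.0437) and 2.65 ± 0.52 (adjusted p = 0.0492). Krt18 was at 3.70, 7.60 and 10.3 CPM in the rich and 0.243, 0.812 and 4.10 CPM in the poor libraries, and Krt8 was at 1.68, 4.51 and 6.55 CPM and 0.341, 0.484 and 3.65 CPM. Both keratins overlapped between the groups through Dp16 replicate 1 and not between the 10 and the 6 libraries. Calml4, a calmodulin-like protein, was at 8.15 to 17.9 CPM in the rich and 0.424 to 6.52 CPM in the poor libraries with no overlap (log2 2.55 ± 0.46, adjusted p = 0.0445). Cldn1, a claudin of tight junctions, was at 5.08 to 16.6 CPM in the rich and 0.558 to 5.11 CPM in the poor libraries (log2 1.78 ± 0.33, adjusted p = 0.0445). Cldn1 lies on chromosome 16 (16:26356642-26371841, GRCm38), outside the segment duplicated in Dp16.

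The fifth call of that list was Epn3, an endocytic adaptor of epithelia (log2 1.55, adjusted p = 0.0492). Cldn2, the claudin that lets sodium and water pass between choroid cells, was at 9.78, 20.5 and 27.3 CPM in the rich libraries, 12.9 CPM in Dp16 replicate 1, 8.75 CPM in 5xFAD replicate 1 and 0.408 to 1.37 CPM in the other 6. Its difference did not pass between rich and poor (3.03 ± 0.80, adjusted p = 0.189) and was 4.53 ± 0.34 between the 10 and the 6 (adjusted p = 3.81e-06). Ezr, which encodes the microvillar linker ezrin and is made by other brain cells too, did not pass at either split (0.23 and 0.37).

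No gene of the 8 in the receptor list, which also holds the enzyme Ace and the collagen Col8a1, passed between rich and poor libraries by edgeR; 6 had an unadjusted p below 0.05 and 6 were called by DESeq2, all higher. Between the 10 and the 6 libraries 5 passed, all higher. Kl encodes klotho, a coreceptor of FGF23 whose shed form enters the fluid, and was at 45.1, 143 and 223 CPM in the rich libraries. In the poor libraries Kl was at 106 CPM in Dp16 replicate 1, 78.1 CPM in 5xFAD replicate 1 and 8.74 to 31.1 CPM in the other 6, so that the groups overlapped. The log2 difference of Kl was 2.03 ± 0.61 (adjusted p = 0.288) between rich and poor and 2.67 ± 0.36 (adjusted p = 0.000848) between the 10 and the 6. Mfrp, a membrane frizzled-related protein whose span overlaps C1qtnf5 on the same strand, differed by 4.37 ± 0.39 between the 10 and the 6 and Ace, the angiotensin-converting enzyme, by 2.11 ± 0.27. The prolactin receptor Prlr differed by 3.16 there, whereas the serotonin receptor Htr2c (0.55) and the growth hormone receptor Ghr (0.08), which neurons also express, did not pass. Between rich and poor libraries Htr2c had the smallest p of the list, with 65.3 to 83.5 CPM in the rich and 31.5 to 81.5 CPM in the poor libraries. Its difference there was 0.65 ± 0.17 and did not pass (edgeR, adjusted p = 0.141).

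In the list of transcription factors, which also holds the RNA-binding protein Rbm47 and the cell cycle inhibitor Cdkn1c, 1 of 8 passed as higher between rich and poor libraries and 5 between the 10 and the 6. The call was Msx1, a homeodomain factor of the dorsal midline, with 9.57 to 24.4 CPM in the rich and 4.04 to 10.6 CPM in the poor libraries (log2 1.43 ± 0.27, adjusted p = 0.0445). Otx2 was at 8.91, 18.5 and 27.3 CPM in the rich libraries, 10.8 CPM in Dp16 replicate 1, 9.65 CPM in 5xFAD replicate 1 and 0.518 to 4.29 CPM in the other 6. Its difference was 2.66 ± 0.55 between rich and poor (adjusted p = 0.0728) and 3.33 ± 0.34 between the 10 and the 6 (adjusted p = 4.89e-05). Foxj1, the master factor of motile cilia, was at 14.9 to 28.6 CPM in the rich and 7.35 to 22.7 CPM in the poor libraries, with 0.82 ± 0.20 between rich and poor (adjusted p = 0.117) and 0.96 ± 0.16 between the 10 and the 6 (adjusted p = 0.00534).

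**Figure D4:**
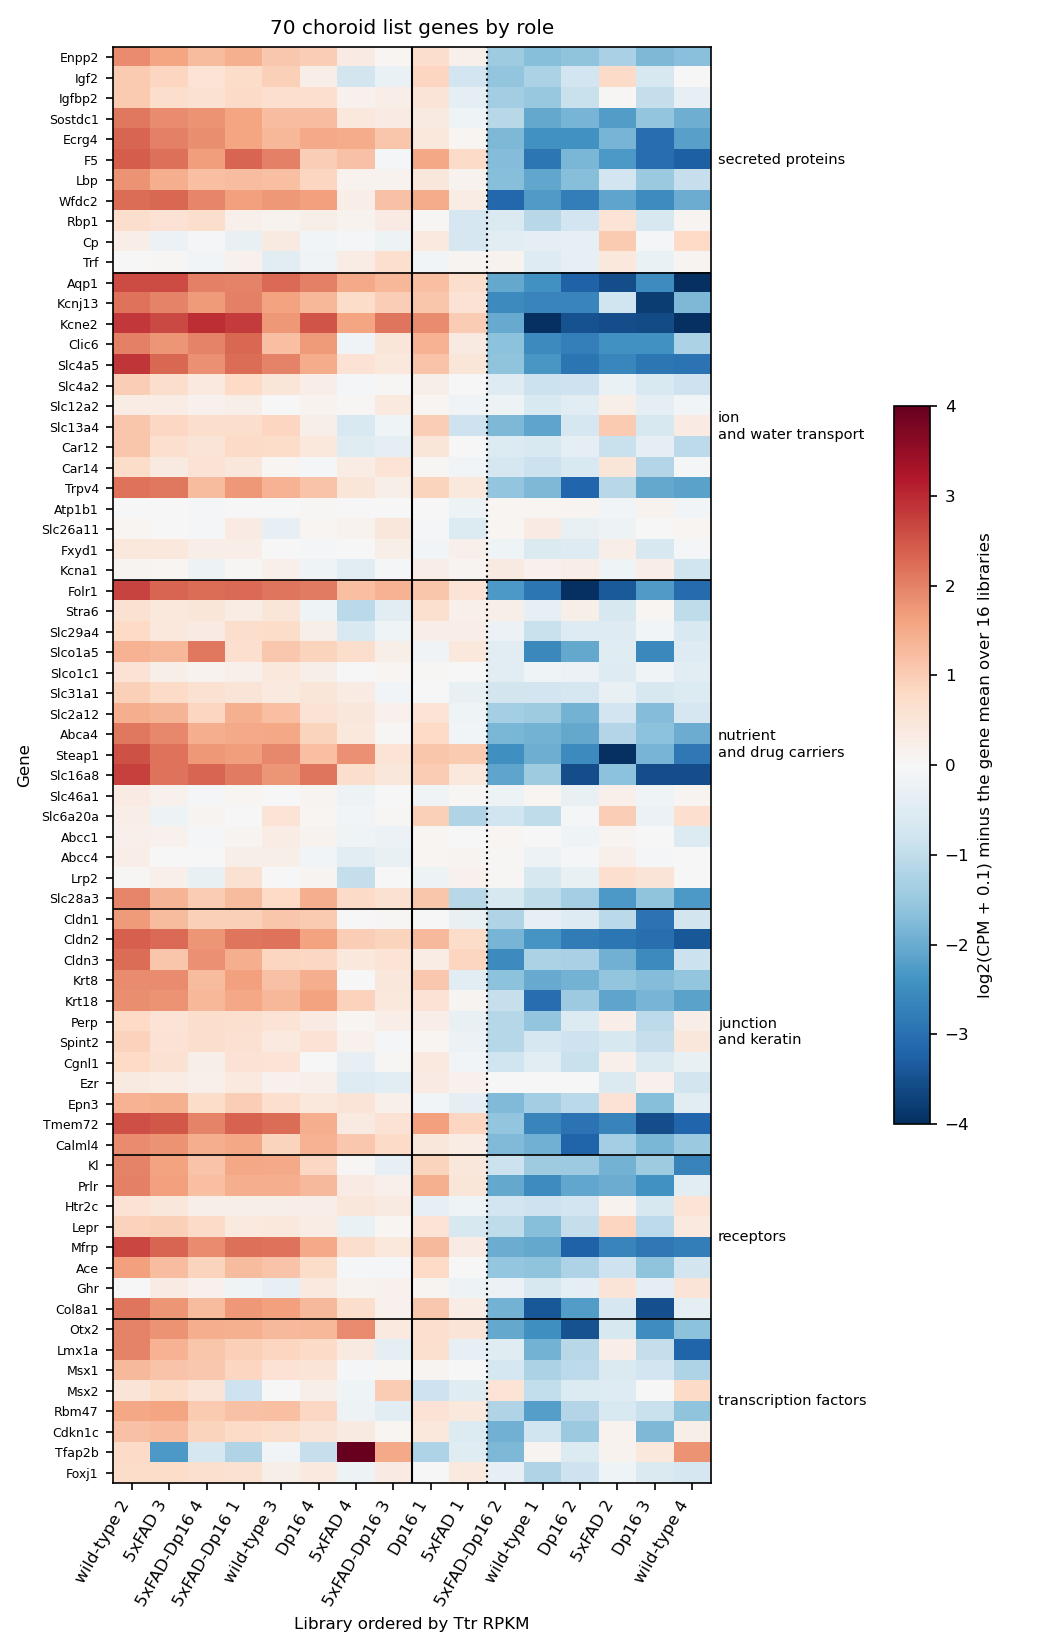
Rows are the 70 choroid list genes grouped by role and columns the 16 libraries ordered by Ttr level; colour is log2(CPM + 0.1) minus the gene's mean over the libraries, with colours saturated at 4 in either direction. The genes that follow the dotted line are red in the 10 libraries to its left and blue in the 6 to its right, and rows such as Atp1b1, Abcc4 and Kcna1 are pale throughout.

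All 13 core panel genes passed as higher between the 10 and the 6 libraries, and in all 13 the values of the 10 and the 6 did not overlap, against 0.623% of all tested genes that were separate in that direction and 0.00599% in the other. Between rich and poor libraries 2 of the 13, Sostdc1 and Calml4, passed, and the values of 3 (Calml4, Aqp1 and Folr1) did not overlap, against 0.186% of all tested genes in that direction and 0.012% in the other. The panel was put together with these data already described, and its counts are no independent evidence.

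Some genes of motile cilia and ependyma were higher as well. Of 20 tested genes, 2 passed between rich and poor libraries and 19 differences were positive, with a median of 1.02. Between the 10 and the 6, 7 passed. Cfap126, a protein of the ciliary basal body, had the smallest p of all choroid and cilia list genes: it was at 5.77, 7.41 and 9.86 CPM in the rich and 1.84, 2.69 and 3.65 CPM in the poor libraries (log2 1.53 ± 0.17, adjusted p = 0.00285). Its values did not overlap, and in 5xFAD replicate 1 (2.24 CPM) and Dp16 replicate 1 (3.65 CPM) they were in the range of the other poor libraries or just above it. The adjusted p of Cfap126 was at most 0.0412 without each library in turn, while that of Tmem212 reached 0.193. Tmem212, an ependymal membrane protein, was at 0.846 to 2.08 CPM in the rich and 0.446 to 0.951 CPM in the poor libraries (log2 1.27 ± 0.24, adjusted p = 0.0445) and did not pass between the 10 and the 6 (adjusted p = 0.206). The summed RPKM of the 20 cilia genes was 45.7 to 74.1 in the rich and 24.8 to 50.5 in the poor libraries, a narrower range than that of the core panel.

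Genes outside these lists were also among those with the largest differences, counting genes with at least 1 CPM in the rich libraries. Ooep, which encodes an oocyte protein, was at 0.444 to 1.95 CPM in the rich libraries, 0.408 CPM in wild-type replicate 4 and 0 in the other 7 poor libraries. It passed as higher (adjusted p = 0.0437), but its fitted log2 difference of 4.16 ± 0.75 depends on the prior count and on wild-type replicate 4, without which it was 7.37 against poor libraries that are all at 0. It did not pass between the 10 and the 6 (adjusted p = 0.147). Pla2g5, a secreted phospholipase, differed by 1.87 ± 0.36 (adjusted p = 0.0459) and Pifo, a ciliary protein, by 1.92 ± 0.26 (adjusted p = 0.00952). Pifo did not overlap between the groups, with 1.61 CPM and more in the rich and 1.12 CPM and less in the poor libraries.

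Markers of the other cells of the plexus did not pass between rich and poor libraries. In the list of choroid stroma and leptomeninges, 0 of 18 genes passed by edgeR or DESeq2, 1 had an unadjusted p below 0.05, and 3 of 18 differences were positive (median -0.20). The summed RPKM of that list was 102 to 136 in the rich and 57.8 to 307 in the poor libraries, highest in 5xFAD replicate 2. The sign of the median depended on the libraries used. It was 0.66 without the 4 libraries highest in midbrain genes, a comparison described below. Of 5 markers of fenestrated capillaries, 3 could be tested and none passed by edgeR or DESeq2, with 2 at an unadjusted p below 0.05: Plvap, the diaphragm protein of fenestrae, differed by 0.42 ± 0.15 (adjusted p = 0.402), and Nkx2-3 was at 0 in all libraries. Border macrophage genes had a median of 0.061 and red blood cell genes of -0.57, where 5 of 5 differences were negative with an unadjusted p below 0.05 and none passed after adjustment. Hemoglobin genes have near-identical copies, and their counts are uncertain.

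Across the 22 lists of other cells, brain regions and cell states, 0 of 212 tested genes passed by edgeR. At an unadjusted p below 0.05, 5 of the 212 were higher and 29 lower, while 497 of all 16683 tested genes were lower. The lower genes thus made up a larger share of these lists than of all genes at this split. They included 5 of 5 red blood cell, 5 of 10 microglia, 5 of 8 oligodendrocyte precursor, 3 of 10 plaque microglia and 3 of 9 mural cell genes. Along log2 Ttr 20 of the 212 were lower at that level (edgeR). In the order just given, the lists then had 5, 0, 1, 1 and 1 lower genes. Between the 10 and the 6 libraries the medians were -0.091 for microglia, -0.080 for oligodendrocyte precursors and 0.087 for plaque microglia. DESeq2 called 1 of the 212, the astrocyte transporter Slc4a4 (log2 -0.31, adjusted p = 0.0464). Median log2 differences were -0.18 for microglia, -0.16 for plaque microglia, -0.14 for astrocytes, 0.027 for oligodendrocytes, -0.24 for their precursors, -0.044 for excitatory neurons and -0.058 for interneurons. They were -0.11 for barrier endothelium, -0.25 for mural cells, 0.020 for the dentate gyrus, -0.047 for CA1, -0.10 for CA2 and CA3, -0.18 for the striatum, -0.24 for immediate-early genes, 0.15 for cytosolic ribosomal proteins and -0.12 for mitochondrially encoded genes. The hippocampal lists were present throughout, with dentate gyrus genes at a summed 85.9 to 139 RPKM in the rich and 85.1 to 127 RPKM in the poor libraries. By mean log2 level, relative to each gene's mean over the 16 libraries, they were lowest in wild-type replicate 4, a poor library. It was at -0.93 for dentate gyrus, -0.96 for CA1, -0.86 for CA2 and CA3 and -1.24 for excitatory neurons.

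Some libraries also carried markers of neighbouring regions. Genes of midbrain and hypothalamus had a median log2 difference of -1.02 (9 of 18 genes tested) and thalamus genes of 0.24. Summed striatum RPKM was 69.5 to 88.6 in the rich and 55.1 to 332 in the poor libraries, highest in wild-type replicate 4. Summed midbrain and hypothalamus RPKM was 3.69 to 38.7 in the rich and 2.75 to 442 in the poor libraries, highest in wild-type replicate 4. By their mean log2 level these genes were highest in wild-type replicate 4 and 5xFAD replicate 2 (both poor) and in 5xFAD-Dp16 replicate 3 and 5xFAD replicate 4 (both rich), and the thalamus genes were highest in 5xFAD replicate 4. Without these 4 libraries, a comparison chosen after seeing the data, 716 of 17186 genes passed, 353 higher and 363 lower. In that comparison 17 of 70 choroid genes and 11 of 20 cilia genes passed, all higher, and the choroid median was 1.82. The choroid genes called there included Slc12a2 and Htr2c, which passed at neither split, and 1 of the 13 core panel genes (Sostdc1). In the other lists the genes called lower there were 2 of 10 astrocyte genes (Slc1a2 and Slc4a4), 2 of 8 excitatory neuron genes (Camk2a and Nrgn), 2 of 5 red blood cell genes (Hba-a1 and Hba-a2) and 1 of 8 oligodendrocyte precursor genes (Gpr17). Also lower were 1 of 7 CA1 genes (Pou3f1), 2 of 8 CA2 and CA3 genes (Iyd and Kcnq5) and 1 of 12 thalamus genes (Adarb1). Called higher were 1 of 18 stromal genes (Dcn), 1 of 3 fenestrated capillary genes (Plvap) and 1 of 9 striatum genes (Ppp1r1b). List medians there were 0.66 for stroma and leptomeninges, 0.50 for fenestrated capillaries and 0.57 for border macrophages. With all 16 libraries they were -0.20, 0.42 and 0.061.

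Within the 10 libraries above the gap, choroid genes differed in how closely they kept to a fixed ratio. As a share of the summed core panel count, Cldn2 was 3.93% to 5.38% (coefficient of variation 9.14%) and Mfrp had a coefficient of variation of 12.4%. The count of Enpp2, which is not in the panel, was 299% to 399% of the panel count (coefficient of variation 7.72%). Otx2 had a coefficient of variation of 45.0% that rested on 5xFAD replicate 4, where its share was 10.9%. In the other 9 libraries the Otx2 share was 3.47% to 5.01% and its coefficient of variation 14.4%, below the 27.3% of Calml4 and the 23.9% of Folr1 in the same 9. The thalamus genes were also highest in 5xFAD replicate 4, and their part in this share was not tested. Folr1 ranged from 4.39% to 8.92% in the 10 libraries. In the 6 libraries below the gap the mix differed, with Kl at 36.8% to 61.1% of the panel count against 24.8% to 38.7% in the 10, and Folr1 at 0.843% to 3.33%. Per length, Enpp2 had a median of 413 RPKM in the 10 libraries, Igfbp2 71.0, Ecrg4 32.8, Clic6 24.7, Kl 22.4, Kcnj13 19.7, Kcne2 19.0, Sostdc1 17.5, Folr1 16.6, Mfrp 9.28 and Aqp1 6.79.

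Each genotype held both choroid rich and choroid poor libraries. The summed panel RPKM was 9.69, 10.1, 140 and 225 in wild-type, 8.96, 9.80, 84.9 and 120 in Dp16, 13.5, 61.8, 86.1 and 187 in 5xFAD and 14.5, 71.7, 150 and 164 in 5xFAD-Dp16. The spread within each genotype was thus larger than the differences between genotypes. None of the 70 choroid genes passed in any of the 3 comparisons with wild-type by edgeR or DESeq2, where 0.108% (Dp16), 0.983% (5xFAD) and 0.857% (5xFAD-Dp16) of all genes passed. At an unadjusted p below 0.05 there were 0, 1 and 1 choroid genes.

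Leaving out the rich or poor term changed where the choroid genes lay in the genotype comparisons without adding a call (0.102%, 0.953% and 0.881% of all genes passed without the term). For Dp16 against wild-type the median log2 difference of the 70 genes was 0.16 with the term and -0.44 without it, with 48 and 7 positive differences, against a median SE of 0.52 and 0.70. For 5xFAD it was 0.21 and -0.091, and for 5xFAD-Dp16 -0.16 and -0.011. With log2 Ttr in place of the groups the medians were -0.16, -0.13 and -0.25, and the median SE fell to between 0.33 and 0.34. These 3 comparisons share the wild-type libraries. Of the genes called with the term, 14 of 18 were also called without it for Dp16, 153 of 164 for 5xFAD and 132 of 143 for 5xFAD-Dp16. The Dp16 count of 18 was 3 when Dp16 replicate 1 or either of wild-type replicates 1 and 2 was left out, 4 without Dp16 replicate 3, 5 without Dp16 replicate 4, 8 without Dp16 replicate 2 and 10 without wild-type replicate 3. The 5xFAD count of 164 was 100, 109 and 283 when wild-type replicates 1, 2 and 4 were left out in turn and 104 without 5xFAD replicate 1. The 5xFAD-Dp16 count of 143 was 93 without wild-type replicate 2 and 95 without 5xFAD-Dp16 replicate 2.

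Clic6, of the chloride intracellular channel family, and Kcne2 are choroid genes inside the segment duplicated in Dp16 and 5xFAD-Dp16 (16:75540514-97962622, GRCm38, as bounded here by its first and last gene), at 16:92485736-92541243 and 16:92292389-92298129, and none of the 13 panel genes lies in it. Dividing by the panel count was meant to compare carriers of the third copy with the others at equal choroid content. It did not reach this over all 16 libraries, since the make-up of the panel changed below the gap. Kl was 36.8% to 61.1% of the panel count in the 6 libraries below it and 24.8% to 38.7% in the 10 above. Kcne2 was at 0.396% to 2.69% in the 6 and 4.41% to 15.6% in the 10, so the test of 16 libraries cannot answer that question. Over all 16 libraries the difference was 0.27 ± 0.28 for Clic6 and 0.88 ± 0.75 for Kcne2 in log2 of the ratio, carriers minus others, and neither passed (exact permutation test, two-sided, p = 0.351 and 0.252, adjusted p = 0.351 for both). The 6 libraries below the gap held 3 to 35 counts of Kcne2, and in wild-type replicate 4 the Clic6 count was 55.0% of the panel count against 12.4% to 30.3% in the other libraries. Without wild-type replicate 4 the Clic6 difference was 0.49 ± 0.18 (exact permutation test, adjusted p = 0.0466). A second adjustment, edgeR with log2 Ttr as a term over all 16 libraries, gave unlike values for the 2 genes. Clic6 differed from wild-type by -0.26 ± 0.52 in Dp16 and -0.19 ± 0.54 in 5xFAD-Dp16. Kcne2 differed by 1.00 ± 0.24 and 0.92 ± 0.22 (edgeR, adjusted p = 0.382 and 0.079), and neither gene passed.

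Where choroid content was high the mean ratios of carriers were above those of the others. In the 8 rich libraries the difference was 0.82 ± 0.16 for Clic6 and 0.82 ± 0.26 for Kcne2, and the exact permutation test of 4 against 4 gave its smallest possible p for both (0.0286, adjusted 0.0286). In the 10 libraries above the gap, chosen after seeing the data, it was 0.75 ± 0.14 for Clic6 (1.69-fold, exact permutation test p = 0.00794, adjusted p = 0.0159) and 0.72 ± 0.23 for Kcne2 (1.65-fold, exact permutation test p = 0.0159, adjusted p = 0.0159). There the Clic6 count was 24.4% to 30.3% of the panel count in the 5 carriers and 12.4% to 20.1% in the other 5, without overlap. Kcne2 was 7.98% to 15.6% in carriers and 4.41% to 8.22% in the others, with an overlap between Dp16 replicate 1 and 5xFAD replicate 4. In the comparison of Dp16 with wild-type alone the Clic6 difference was -0.042 (exact permutation test, adjusted p = 0.914), with wild-type replicate 4 among the libraries. That of Kcne2 in the same comparison was 1.00 ± 1.19 (exact permutation test, adjusted p = 0.857). In 5xFAD-Dp16 against 5xFAD the difference was 0.59 ± 0.22 for Clic6 and 0.76 ± 0.81 for Kcne2 (exact permutation test, adjusted p = 0.171 and 0.429), so neither gene passed in either comparison of 4 against 4. Clic6 overlaps 2410124H12Rik on the same strand, and reads of the overlap cannot be assigned with certainty.

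**Figure D5:**
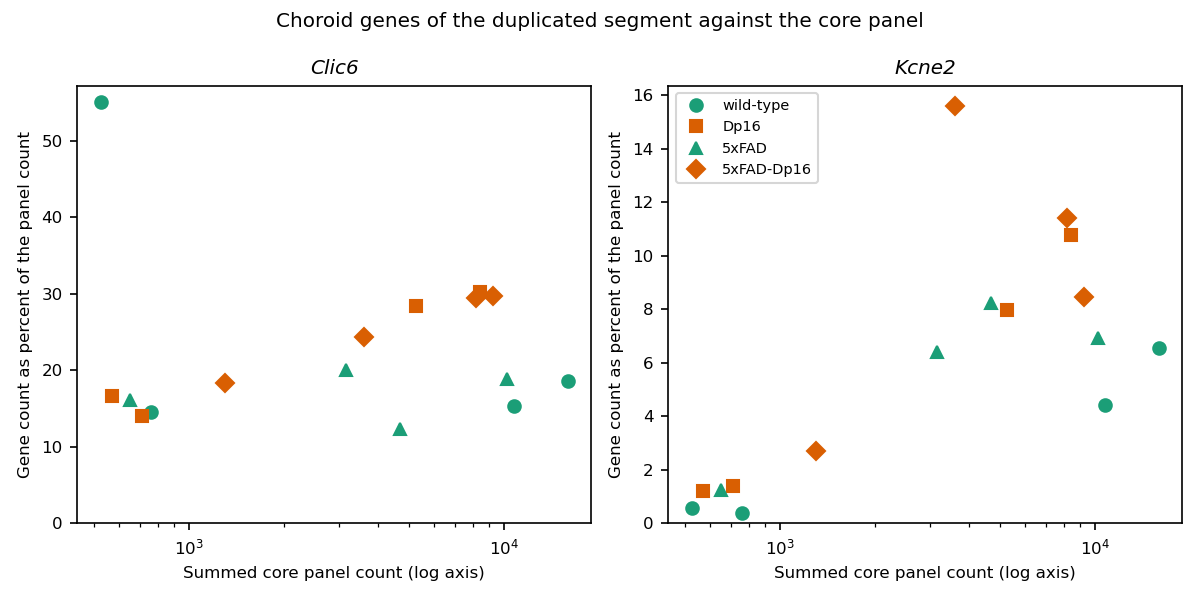
The count of Clic6 (left) and Kcne2 (right) as percent of the summed count of 13 choroid panel genes (vertical axis) is plotted against that summed count (horizontal log axis) for the 16 libraries; orange symbols carry the duplication and green ones do not. Among the 10 libraries with high panel counts the Clic6 points of carriers lie at 24.4% and above and those of the others at 20.1% and below, while wild-type replicate 4, with few panel counts, lies at 55.0%.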

How the data were processed

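Polyadenylated RNA of 16 hippocampus libraries was sequenced in pairs with a strand-specific kit, per the labels' protocols. The authors deposited whole-number counts per gene and RPKM values, and the RPKM were the deposited counts rescaled by library and gene length in 27505 of 27505 genes checked (relative tolerance 1e-06). Per the submitters' processing notes the tools included bcl2fastq, FastQC 0.11.5, HISAT2 2.1.0, SAMtools 1.5 and HTSeq 0.6.1 with build GRCm38; the strand setting of the counting could not be read from those notes or the labels. Of 70 choroid list genes, 32 are overlapped by another annotated gene, 13 of them on the same strand. Total counts were 15838097 to 25037769 per library.

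The libraries were ranked by the RPKM of Ttr. Counts were fitted with edgeR 4.0.16 in R 4.3.3 (TMM scaling, edgeR's expression filter by genotype, robust quasi-likelihood test) with genotype and the rich or poor group as terms. Ttr was dropped before Benjamini-Hochberg adjustment over 16683 genes at a threshold of 0.05. CPM are TMM-scaled, and fold changes are log2 with SE. DESeq2 1.42.0, limma 3.58.1 and other designs were alternatives, and the fit was tested on simulated data. Ratios to the panel were compared with exact permutation tests. Coordinates are those of the GRCm38 annotation, where 55144 of 55385 gene IDs were found.

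The rule named the 10 genes with the largest differences in each direction with at least 1 CPM and no clone name, up to 4 genes per choroid list and up to 2 per other list by smallest p, the panel, Clic6 and Kcne2. Other list members are named after their values were seen. A gene that the rule also selected is not reported here. The members and gene lists were chosen with earlier results of these data known.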

Additional observations from a re-analysis of the deposited data

Results flagged for a closer look

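Among 46 groups of 8 libraries tested gene by gene on log2(CPM + 0.1), 3 held a library whose distance to its nearest neighbour was a larger share of the group's range than Dixon's critical value of 0.526, and chance alone gives about 1 in 20. Cldn1 was at 0.558 CPM in Dp16 replicate 3, against 2.13 to 5.11 CPM in the other poor libraries (ratio 0.590). Ooep was at 0.408 CPM in wild-type replicate 4 and at 0 in the other poor libraries (ratio 1). Otx2 was at 8.91 CPM in 5xFAD-Dp16 replicate 3, against 16.8 to 27.3 CPM in the other rich libraries (ratio 0.568).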

How the results depend on the processing

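The count of genes between rich and poor libraries was 43 and became 27 with RLE scaling, 101 with no filter on low counts, 105 with limma, 110 with no genotype term, 134 with libraries ranked by the core panel, 142 with a midbrain score added, 152 within each genotype, 168 with sex added, 183 with log2 Ttr as a continuous term, 187 at the 10 against 6 split, 248 with DESeq2, 276 with the 6 highest against the 6 lowest and 716 without the 4 libraries highest in midbrain genes. The last, with 353 higher and 363 lower, was the fit where calls were no longer mostly higher; the cause was not tested. Leaving out single libraries gave 1 to 146. The genotype counts became 36 (Dp16), 300 (5xFAD) and 246 (5xFAD-Dp16) with DESeq2, and ranged from 3 to 26, 100 to 283 and 93 to 176 when single libraries were left out. The Clic6 ratio difference of 0.27 was 0.82 in the rich libraries, 0.75 in the 10 libraries above the gap, -0.042 in Dp16 against wild-type and 0.19 to 0.49 with single libraries left out. That of Kcne2 was 0.82, 0.72 and 0.52 to 1.16 in the rich libraries, the 10 libraries and with single libraries left out.

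With the replicate number as a block, 51 genes passed between rich and poor libraries and 21, 162 and 147 in the genotype comparisons. Deviations from the genotype means correlated at -0.35 to 0.35 between libraries with the same number (24 pairs, median 0.042). Between libraries with other numbers they correlated at -0.49 to 0.49 (72 pairs, median -0.021). A shared deviation by number was not seen. The deviations also carry differences in choroid content, so this check cannot exclude that the numbers pair libraries. Sostdc1 (adjusted p = 0.0518) and Tmem212 (adjusted p = 0.121) did not pass with the block by edgeR. The 6 libraries below the gap hold few counts of most panel genes, which limits their ratios.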

Other observations

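Outside the lists, 137 genes passed as higher between the 10 libraries above the gap and the 6 below it by edgeR, and 54 of them had values that did not overlap and a mean of at least 1 CPM in the 10. The genes named here were chosen after their values were seen, at a split also chosen after seeing the data. They come from no fixed list, and no gene group was tested. Cdh3 (P-cadherin) was at 0.962 to 8.25 CPM in the 10 and 0.062 to 0.535 CPM in the 6 libraries, a log2 difference of 3.92. Oca2 was at 1.82 to 4.81 CPM and 0.0453 to 0.62 CPM, a difference of 3.11 (log2). Rdh5, a retinol dehydrogenase, was at 4.54 to 17.9 CPM and 0.682 to 3.9 CPM, a difference of 2.55 (log2). Mlf1 was at 1.46 to 4.67 CPM and 0.0974 to 1.37 CPM, a difference of 1.96 (log2). Cltrn (collectrin) was at 0.542 to 1.57 CPM in the 10 libraries and 0 to 0.062 CPM in the 6, too few counts for a fold.

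Between rich and poor libraries, 31 of the 43 genes called were outside the lists. Acaa2, a mitochondrial enzyme of fatty acid breakdown, differed there by 0.68 and Cab39l, a scaffold of the kinase LKB1, by 0.95 (edgeR, adjusted p = 0.00952 for both). Tac2, which encodes neurokinin B, was the 1 gene called lower along log2 Ttr.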
